A study of Homo sapiens with 12 samples.

Results

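EGR1, ATF3 and FOSL1 are 3 immediate early or stress-induced transcription factor genes, described here on 12 expression arrays of Ishikawa cells, an established human endometrial adenocarcinoma line. They are 3 of the 14884 genes tested and have 4 of the 53617 probe sets on the array. Where a gene had more than 1 probe set, the brightest by its mean on all 12 arrays was used, which applied to EGR1 with 2 probe sets. The genes were chosen by measured values: EGR1 and ATF3 for lower levels on shMOF than on control arrays in the condition labelled ERα(-), and FOSL1 for lower levels on shMOF than on control arrays in the condition labelled ERα(+). Differences in those 2 comparisons are therefore a description, with no test.

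Each of the 4 groups had 3 arrays: cells labelled shMOF or control, both under the ERα(-) label and again under the ERα(+) label, and all were Ishikawa cells with total RNA as the measured molecule. KAT8 encodes MOF, a histone acetyltransferase, shMOF names a short hairpin against it, and ESR1 encodes ERα, a receptor for oestrogen. The labels leave unsaid what sets ERα(+) apart from ERα(-), which sequence the hairpin has, how many clones the shMOF label covers and where the replicates come from, so p-values rest on the spread among the 12 arrays, part or all of which may be technical. Values are log2 levels as the authors deposited them, and a difference of 1 on this scale is a doubling.

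Immediate early genes are switched on within minutes of a growth factor, hormone or stress signal from factors already present in the cell. EGR1 is a zinc finger factor of this class, induced through the ERK pathway and serum response factor. ATF3 is a bZIP factor induced by many stresses, among them amino acid shortage and endoplasmic reticulum stress through ATF4, and it binds DNA alone or with JUN. FOSL1 encodes FRA-1, a FOS family protein that joins a JUN protein to form AP-1 and whose amount follows sustained ERK activity. In the rodent uterus, oestrogen is known to induce Egr1 and Fos.

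The levels of the labelled genes did not follow the labels. KAT8 averaged 6.75 ± 0.03 on shMOF and 6.77 ± 0.10 on control arrays in ERα(-), and 6.78 ± 0.21 on shMOF and 6.74 ± 0.12 on control arrays in ERα(+) (SD, n = 3 each). ESR1 averaged 4.27 ± 0.007 in shMOF ERα(+) and 4.42 ± 0.09 in shMOF ERα(-), and 4.46 ± 0.17 in control ERα(+) and 4.28 ± 0.15 in control ERα(-) (SD, n = 3 each). ESR1 lay under 5.66, the median level of the tested genes, in every group. The groups are named below by their labels, and every direction is that of arrays labelled shMOF or ERα(+).

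Of the epithelial markers, 8 of 10 were measured, and 7 of the 8 lay at or above the median level of the tested genes. None of the 3 measured fibroblast markers or the 3 measured endothelial markers did, nor did 2 of the 3 immune markers, CD14 and LYZ, while CD68 did. Array medians lay between 4.53 and 4.59, correlations between arrays over genes between 0.9651 and 0.9939, and 0 pairs of arrays were identical. With limma and Benjamini-Hochberg adjustment over all genes, 0 genes, or 0% of those tested, passed an adjusted p of 0.05 in any of the 4 comparisons of groups or in the interaction, and the smallest adjusted p was 0.0696, in the interaction. At an unadjusted p under 0.05, shMOF against control gave 711 genes in ERα(-) and 2787 in ERα(+). Between the ERα labels there were 1894 such genes on control arrays and 793 on shMOF arrays, and the interaction had 2685. The control ERα(-) replicate 1 array stood apart from the other 11 in stress genes, as set out below, and a difference that it moves by over 1.5 times is given with and without it.

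Stretches before listed starts of EGR1 and ATF3 are shown because elements bound by signal-responsive factors are known in the promoters of both. Whether the ATF3 windows cover its known elements was not checked. The 250 bases before each start are from RefSeq (GRCh38.p14), for EGR1 chr5:138465229-138465478 and for the first of 2 listed ATF3 starts chr1:212565157-212565406, both on the plus strand. Capitals mark matched motifs.
EGR1: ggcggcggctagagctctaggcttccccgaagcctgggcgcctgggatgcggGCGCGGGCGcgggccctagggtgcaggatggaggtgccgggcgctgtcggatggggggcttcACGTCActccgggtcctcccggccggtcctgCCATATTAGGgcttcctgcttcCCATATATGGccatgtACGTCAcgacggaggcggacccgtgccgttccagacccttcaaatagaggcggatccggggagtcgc
ATF3: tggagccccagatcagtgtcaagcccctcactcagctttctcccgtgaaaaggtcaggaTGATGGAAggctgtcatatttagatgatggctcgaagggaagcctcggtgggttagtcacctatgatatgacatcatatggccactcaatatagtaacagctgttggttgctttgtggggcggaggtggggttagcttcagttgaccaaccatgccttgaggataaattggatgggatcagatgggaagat
Motifs were sought on both strands in 35116 RefSeq windows of 300 bases, 250 before and 50 after a start. They were the CArG box bound by serum response factor, the cyclic AMP response element TGACGTCA and its core TGACGT, the AP-1 site TGANTCA, the EGR site GCGNGGGCG, the composite of C/EBP and ATF factors TGATGNAA, and TATAAA. The core lies within the full cyclic AMP response element.

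The EGR1 promoter held 2 CArG boxes, CCATATTAGG at -105 and CCATATATGG at -83 from the start. A CArG box was present in 1.29% of all windows. The core TGACGT stood on the reverse strand in 2 places, as ACGTCA at -136 and -67, and 7.98% of windows held it. An EGR site, GCGCGGGCG, lay at -198, and 9.43% of windows held one.

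In ATF3, the first window held the composite TGATGGAA at -191, a motif found in 3.62% of windows. The second ATF3 window held TATAAA at -230 and none of the other motifs, and 11.5% of windows had TATAAA. Neither member's windows held the full cyclic AMP response element (1.85% of windows) or the AP-1 site (7.71% of windows). FOSL1, on chromosome 11, is named only. Of the 30 other measured EGR, AP-1 and immediate early genes, 23 had a window, and 0 of the 23 held a CArG box, against 1.72% of the 10749 tested genes with a window. At so low a share, 23 genes are too few for 0 to mark a lack. The core TGACGT was in 10 of the 23, or 43.5%, against 12.1% of the tested genes. The 10 were DUSP1, EGR4, FOS, FOSB, FOSL2, JDP2, JUND, MAFF, MAFG and NAB1. These matches describe letters in a window and say nothing of binding or of promoter stretches outside the windows.

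EGR1 was at its highest in control ERα(-) and stood lower in the other 3 groups. Its level was 6.03, 6.01 and 6.24 on the shMOF ERα(-) arrays, against 7.78, 6.81 and 7.55 on the control ERα(-) arrays. In ERα(+) it was 5.96, 6.34 and 6.93 on the shMOF arrays, against 6.26, 6.10 and 6.98 on the control arrays. The ERα(-) groups did not overlap, with every shMOF array under every control array, while the ERα(+) groups covered nearly the same range. From low to high the group means were 6.09 ± 0.13 (shMOF ERα(-)), 6.41 ± 0.49 (shMOF ERα(+)), 6.44 ± 0.47 (control ERα(+)) and 7.38 ± 0.51 (control ERα(-)), each with the SD of 3 arrays. Neighbours among the lower 3 lay within their spread. In RNA of whole cultures, fewer cells with a transcript and less of it per cell cannot be told apart.

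For ATF3 the pattern across groups was of the same kind, with a wider spread among controls. Levels were 5.82, 5.52 and 5.27 on the shMOF ERα(-) arrays, against 7.79, 6.56 and 5.93 on the control ERα(-) arrays. In ERα(+) they were 5.38, 5.25 and 6.10 on the shMOF arrays, against 5.78, 5.57 and 6.08 on the control arrays. The ERα(-) groups did not overlap, but only 0.11 separated the highest shMOF array from the lowest control array, and the control level on replicate 1 was far above the others. From low to high the means were 5.54 ± 0.27 (shMOF ERα(-)), 5.58 ± 0.46 (shMOF ERα(+)), 5.81 ± 0.25 (control ERα(+)) and 6.76 ± 0.95 (control ERα(-)), with SDs of 3 arrays, and no 2 neighbours in this order differed by more than the larger of their SDs.

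FOSL1 was at its highest in control ERα(+), unlike the other 2 genes. The shMOF ERα(+) arrays had 6.86, 6.74 and 7.15, against 7.73, 8.02 and 7.66 on the control ERα(+) arrays. In ERα(-) the shMOF arrays had 7.78, 6.73 and 7.63, against 7.07, 7.44 and 6.83 on the control arrays. The ERα(+) groups were separate, with shMOF lower on every array, whereas in ERα(-) the shMOF arrays lay on both sides of the controls. In ERα(+) the means were 6.91 ± 0.21 for shMOF and 7.80 ± 0.19 for control, and in ERα(-) they were 7.38 ± 0.57 for shMOF and 7.11 ± 0.31 for control (SD, n = 3 each). Ordered by mean, neighbouring groups lay within the larger of their SDs.

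**Figure D1:**
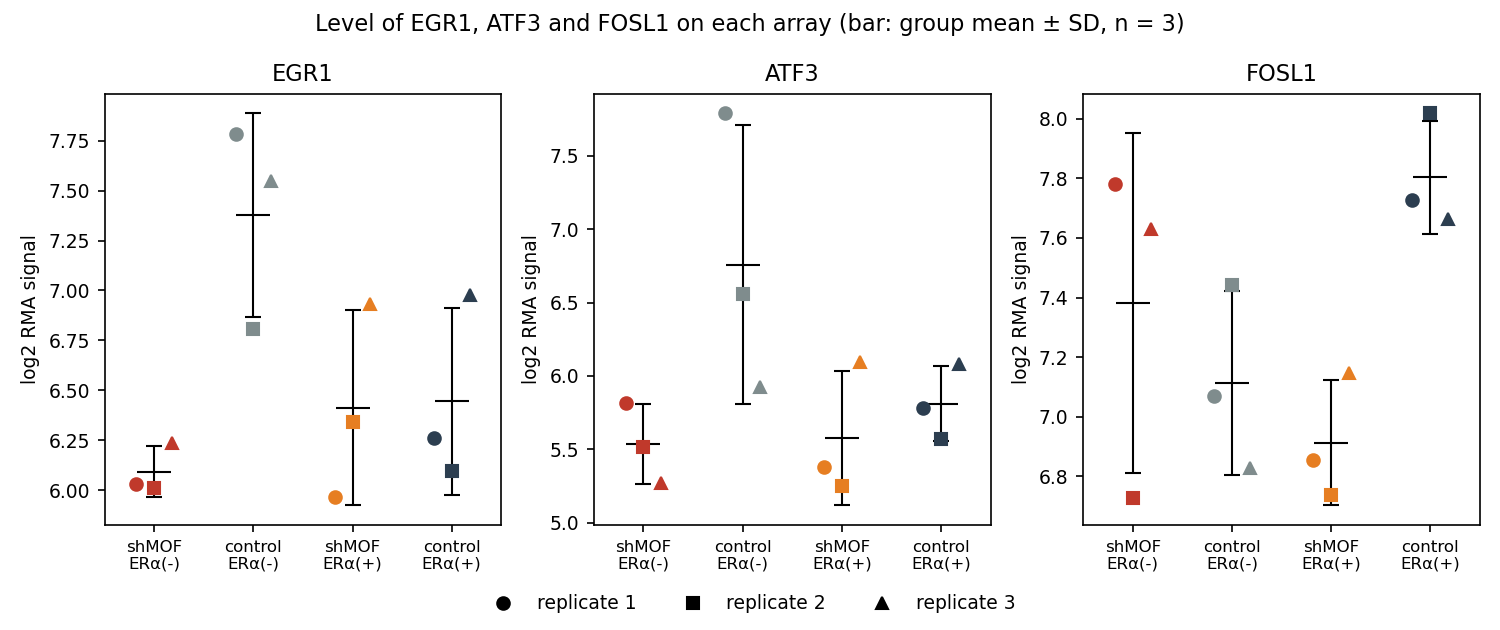
Log2 level of EGR1, ATF3 and FOSL1 on each of the 12 arrays, by group, with group means. EGR1 and ATF3 stand highest in control ERα(-), at means of 7.38 and 6.76, and FOSL1 in control ERα(+), at 7.80.

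In the comparisons that chose the genes, EGR1 was lower by 2.44-fold on shMOF arrays in ERα(-), a log2 difference of -1.29 ± 0.28 (SE; 95% interval -1.9 to -0.67). ATF3 had -1.22 ± 0.36 there (SE; interval -2.0 to -0.44), or 2.33-fold. Of all 14884 genes, 2 had a lower value than EGR1 in this comparison and 5 a lower value than ATF3. FOSL1 had -0.89 ± 0.24 in ERα(+) (SE; interval -1.41 to -0.37), or 1.85-fold, and 23 genes had a lower value. The genes were chosen for these differences, so low ranks and intervals away from 0 follow from the choice. The intervals take no account of it, and the sizes may be too large. The shMOF and control groups did not overlap, with shMOF lower, for 4.66% of all genes in ERα(-) and for 14.1% in ERα(+).

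The same genes in the other ERα condition, on arrays their choice did not use, gave no call. EGR1 differed by -0.03 ± 0.28 between shMOF and control in ERα(+) (SE; 95% interval -0.64 to 0.58; limma adjusted p = 0.963). ATF3 differed by -0.24 ± 0.36 there (SE; interval -1.02 to 0.54; limma adjusted p = 0.740). FOSL1 differed by 0.27 ± 0.24 between shMOF and control in ERα(-) (SE; interval -0.25 to 0.79; limma adjusted p = 0.953). Each interval reaches beyond 0.5 on at least one side, so a difference of that size is not excluded. Groups overlapped in all 3 cases. Over arrays left out in turn EGR1 in ERα(+) ranged from -0.29 to 0.23, ATF3 in ERα(+) from -0.50 to -0.07 and FOSL1 in ERα(-) from 0.07, without shMOF replicate 1, to 0.59, without shMOF replicate 2. The sign of EGR1 in ERα(+) was not stable over these, while ATF3 stayed negative. With the score of each array on the first principal component of all genes in the fit, EGR1 had 0.20 and ATF3 0.19. The control ERα(+) scores were -13.3, -3.6 and -32.9, and the shMOF ERα(+) scores 4.4, 29.8 and 9.9. These groups are thus separate on the component, and this fit takes out shMOF differences that run along it. The same holds for every ERα(+) value from this fit below.

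**Figure D2:**
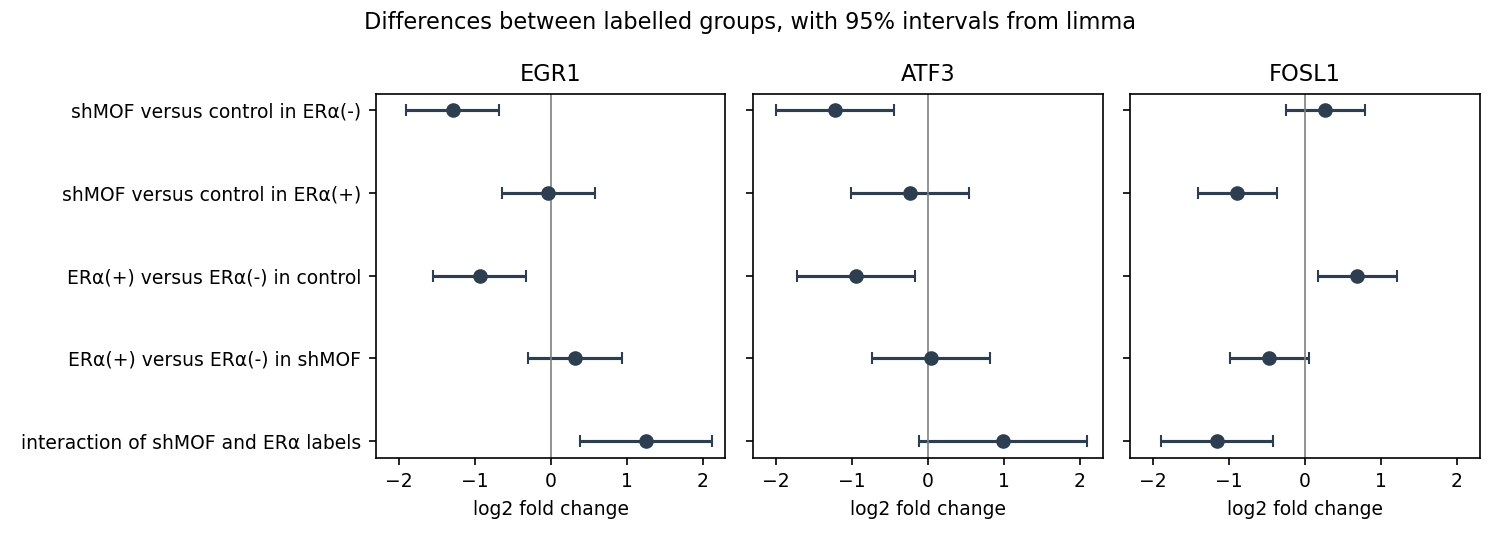
Log2 differences with 95% intervals for EGR1, ATF3 and FOSL1 in each comparison, shMOF minus control and ERα(+) minus ERα(-), and in the interaction. EGR1 has -1.29 for shMOF in ERα(-) and -0.03 in ERα(+), and FOSL1 has 0.27 and -0.89.

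ERα(+) was compared with ERα(-) within each hairpin label. These comparisons share arrays with those that chose the genes, so they carry no p. On control arrays EGR1 differed by -0.93 ± 0.28 (SE; 95% interval -1.55 to -0.32), and 24 genes had a lower value. ATF3 differed by -0.95 ± 0.36 on control arrays (SE; interval -1.73 to -0.17), and FOSL1 by 0.69 ± 0.24 (SE; interval 0.17 to 1.21). For EGR1 and ATF3 the control groups overlapped, while every control ERα(+) array had more FOSL1 than every control ERα(-) array. Across all genes, ERα(+) control arrays did not overlap ERα(-) control arrays and were higher for 10.3%, and lower for 8.92%.

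On shMOF arrays the ERα(+) minus ERα(-) differences were 0.32 for EGR1 (95% interval -0.29 to 0.93), 0.04 for ATF3 (interval -0.74 to 0.82) and -0.47 for FOSL1 (interval -0.99 to 0.05). Every one of these intervals includes 0. Over arrays left out in turn they ranged from 0.06 to 0.54 for EGR1, from -0.22 to 0.20 for ATF3 and from -0.79 to -0.27 for FOSL1. The lowest values of EGR1 and ATF3 came without shMOF ERα(+) replicate 3, and that of FOSL1 without shMOF ERα(-) replicate 2. The interaction sets the shMOF differences of both conditions against each other, as ERα(+) minus ERα(-), and was 1.25 ± 0.40 for EGR1 (SE; interval 0.39 to 2.12). It was 0.99 ± 0.51 for ATF3 (SE; interval -0.12 to 2.09) and -1.16 ± 0.34 for FOSL1 (SE; interval -1.89 to -0.42). The interaction includes the choosing comparison of each gene, and no p is given. Without control ERα(-) replicate 1 the ATF3 interaction was 0.47, and the ATF3 difference between ERα(+) and ERα(-) on control arrays was -0.43. Over alternative analyses the interaction ranged from 0.78 to 1.57 for EGR1, from 0.47 to 1.57 for ATF3 and from -1.48 to -0.56 for FOSL1. The FOSL1 difference between the ERα labels on control arrays ranged from 0.36 to 0.86 over them.

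Leaving out 1 array at a time moved ATF3 most. Without control ERα(-) replicate 1 its shMOF difference in ERα(-) was -0.71, and over all arrays left out in turn it ranged from -1.64 to -0.71. EGR1 was -1.08 without that array and ranged from -1.57 to -1.08. FOSL1 in ERα(+) ranged from -1.01 to -0.78. The array thus moved ATF3 by over 1.5 times and EGR1 by less. With the first principal component in the fit FOSL1 in ERα(+) was -0.45.

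**Figure D3:**
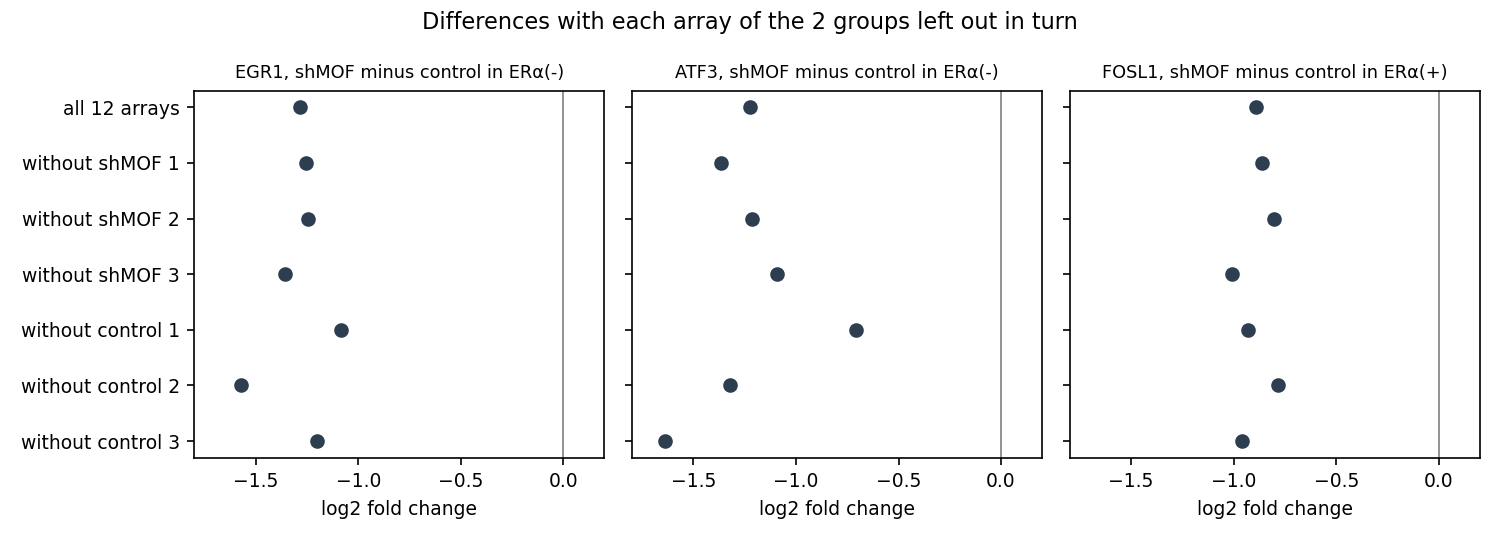
Log2 difference, shMOF minus control, for EGR1 and ATF3 in ERα(-) and FOSL1 in ERα(+), with all 12 arrays and with each array of the compared groups left out. Without control ERα(-) replicate 1, ATF3 in ERα(-) is -0.71, against -1.22 with all arrays.

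The second EGR1 probe set was dim, with group means in ERα(-) of 3.29 for shMOF and 3.65 for control, and in ERα(+) of 3.40 for shMOF and 3.45 for control. Its shMOF difference was -0.35 ± 0.17 in ERα(-) and -0.05 ± 0.17 in ERα(+) (SE). The 2 probe sets had the same sign in both, with the dim one nearer to 0. The mean of both probe sets gave -0.82 in ERα(-). The letter of the sample code in the labels was shared across the hairpin label by only 1 pair, shMOF ERα(-) replicate 1 and control ERα(-) replicate 3. Between them EGR1 was 6.03 against 7.55, ATF3 5.82 against 5.93, and FOSL1 7.78 against 6.83. The labels do not say what the letter stands for.

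Other genes of the same class were counted beside the members, which are left out of these counts. For shMOF in ERα(-), 50.6% of all genes had a log2 difference below 0, 2.68% were lower and 2.10% higher at an unadjusted p under 0.05, and the median over all genes was -0.0026. In ERα(+) 56.2% were below 0, 8.51% were lower and 10.2% higher at that p, and the median was -0.039. Between the ERα labels on control arrays 50.4% were below 0, with 6.38% lower and 6.34% higher at that p, and on shMOF arrays 55.0% were below 0. None of the genes named below passed an adjusted p of 0.05, so their values are estimates with no call. Some genes stand in more than 1 list.

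The EGR family and its NAB co-repressors, which bind EGR proteins and damp their activity, had 4 measured genes besides EGR1. All 4 were below 0 for shMOF in ERα(-), with a median of -0.07, and EGR3, a close relative of EGR1, had -0.26 ± 0.15 (SE). Leaving out control ERα(-) replicate 1 gave 3 of the 4 below 0, with a median of -0.05, and EGR3 at -0.14. In ERα(+) 3 of the 4 were below 0, with a median of -0.08 (-0.13 to -0.0025 over the alternative analyses), and NAB2 had -0.28 ± 0.20 (SE). None passed an unadjusted p of 0.05 in either.

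AP-1 and related bZIP genes had 10 measured members besides ATF3 and FOSL1. For shMOF in ERα(-), 9 of 10 were below 0, with a median of -0.15, and without control ERα(-) replicate 1 it was 4 of 10, with a median of 0.04. JUN, the main partner of FOS proteins, had -0.60 ± 0.37 in ERα(-) (SE; -0.05 without that array) and -0.64 ± 0.37 in ERα(+) (SE). In ERα(+) 8 of 10 were below 0, with a median of -0.26 (0.10 with the first principal component in the fit). ATF2, a stress-kinase target that pairs with JUN, was the single member past an unadjusted p of 0.05 there, at 0.58 ± 0.21 (SE), and on control arrays it had -0.50 ± 0.21 for ERα(+) against ERα(-) (SE). JUNB, another JUN protein, had -0.55 ± 0.31 for shMOF in ERα(+) (SE).

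Among 16 other immediate early genes, 9 were below 0 for shMOF in ERα(-), with a median of -0.09, and 2 were lower at an unadjusted p under 0.05. These were CCN2, a secreted matrix protein, at -0.51 ± 0.15 and KLF10, a zinc finger factor induced by TGF-β, at -0.50 ± 0.20 (SE). Without control ERα(-) replicate 1, 7 of 16 were below 0, with a median of 0.08, and KLF10 had -0.25 and CCN2 -0.64. In ERα(+) 13 of 16 were below 0, with a median of -0.22, and 4 were lower at that p. They were IER5 at -0.58 ± 0.17, the factors KLF2 at -0.29 ± 0.11 and KLF4 at -0.40 ± 0.16, and the nuclear factor CSRNP1 at -0.54 ± 0.22 (SE). With the first principal component in the fit the median in ERα(+) was 0.05. On control arrays, ERα(+) minus ERα(-) was -0.48 ± 0.20 for KLF10 and -0.66 ± 0.27 for PTGS2, the inducible cyclooxygenase (SE), and without control ERα(-) replicate 1 they were -0.23 and -0.21.

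Upstream of the members, 9 EGF family ligands and receptors were measured. For shMOF in ERα(-) 4 were below 0, with a median of 0.03, and 2 were lower and 1 higher at an unadjusted p under 0.05. The ligand BTC had -0.33 ± 0.12, the receptor ERBB4 -0.71 ± 0.26 and the ligand EGF 0.40 ± 0.15 (SE). In ERα(+) 6 were below 0, with a median of -0.11 (0.03 without control ERα(+) replicate 2), and 1 gene passed that p in each direction. The ligand HBEGF had -0.79 ± 0.26 and ERBB4 0.65 ± 0.26 (SE), so ERBB4 had opposite signs in the 2 conditions. Between the ERα labels on control arrays ERBB4 had -0.96 ± 0.26 (SE).

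Of SRF and its cofactors, which act on CArG boxes such as those of EGR1, 3 genes were measured. SRF itself had 0.10 ± 0.12 for shMOF in ERα(-) (SE; 0.17 without control ERα(-) replicate 1) and -0.41 ± 0.12 in ERα(+) (SE), and on control arrays 0.37 ± 0.12 for ERα(+) against ERα(-) (SE). In each of these comparisons the sign for SRF and its cofactor MRTFA was that given for FOSL1 above. The cofactor MRTFB had the opposite sign in each. For shMOF it had -0.15 ± 0.18 in ERα(-) (SE; -0.23 without control ERα(-) replicate 1) and 0.35 ± 0.18 in ERα(+) (SE). On control arrays MRTFB had -0.20 ± 0.18 for ERα(+) against ERα(-) (SE). The signs of SRF were not particular to it, since BAG3 and TIMP1 of other lists had them too. The median of the 3 measured genes was 0.10 in ERα(-) (0.17 without control ERα(-) replicate 1) and -0.20 in ERα(+). Over the alternative analyses that ERα(+) median ranged from -0.30 to -0.05. A list of actin and SRF target genes had 5 measured members, among them VCL, FHL2, TPM1 and CNN2. Of the 5, 2 were below 0 in ERα(-), with a median of 0.12 (0.06 without that array), and 4 in ERα(+), with a median of -0.19. The ERα(+) median of the 5 ranged from -0.23 to -0.04 over the alternative analyses. CNN2, an actin-binding protein, had -0.31 ± 0.14 in ERα(+) (SE).

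ERK feedback genes, which include the phosphatases and ETS factors induced when ERK is active, had 10 measured members. For shMOF in ERα(-) 5 were below 0 and 5 above, with a median of 0.0022 (-0.016 without control ERα(-) replicate 1), and the ETS factor ETV5 had -0.38 ± 0.15 (SE). In ERα(+) 7 were below 0, with a median of -0.17 (0.09 with the first principal component in the fit), and the phosphatases DUSP7 at -0.42 ± 0.13 and DUSP5 at -0.50 ± 0.20 passed an unadjusted p of 0.05 (SE). Without control ERα(+) replicate 3 that median was -0.06.

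Genes described elsewhere as targets were counted too. Of 7 measured EGR1 targets, 6 were below 0 for shMOF in ERα(-), with a median of -0.07, and the one above 0 was FN1, fibronectin, at 1.11 ± 0.48 (SE). Leaving out control ERα(-) replicate 1 gave 3 of the 7 below 0, with a median of 0.0096. In ERα(+) 6 of 7 were below 0, with a median of -0.28 (0.10 with the first principal component in the fit), and THBS1, the matrix protein thrombospondin, had -0.70 ± 0.26 (SE). Of 6 AP-1 targets, 2 were below 0 in ERα(-), with a median of 0.09, and without control ERα(-) replicate 1 it was 3, with a median of -0.0027. In ERα(+) 5 of the 6 were below 0, with a median of -0.30 (-0.10 without control ERα(+) replicate 2). The median of -0.30 lay between MMP1, at -0.31 ± 0.22, and MMP10, at -0.30 ± 0.23 (SE), both dim. On control ERα(+) replicates 1, 2 and 3 MMP1 was 3.65, 4.60 and 3.71, and MMP10 was 3.39, 4.23 and 3.29. TIMP1, an inhibitor of matrix proteases, had -1.0 ± 0.30 in ERα(+) (SE). The chemokine CXCL8 had -0.72 ± 0.38 in ERα(-) (SE; -0.28 without control ERα(-) replicate 1).

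Stress genes were counted because ATF3 is among their usual companions. All 12 measured genes of the integrated stress response were below 0 for shMOF in ERα(-), with a median of -0.31, but without control ERα(-) replicate 1 only 5 of 12 were, with a median of 0.11. DDIT3, the stress factor CHOP, had -0.97 ± 0.52 (SE) with all arrays and -0.06 without that one, and EIF2AK3, the kinase PERK, had -0.37 ± 0.15 (SE) and -0.26. Of 8 hypoxia genes 7 were below 0, with a median of -0.31, and without that array 0 of 8 were, with a median of 0.36. Of 6 heat shock genes 1 was below 0, with a median of 0.44, and without that array 4 were, with a median of -0.05. All 3 lists thus changed the sign of their median when 1 control array was left out.

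In ERα(+), where that array takes no part in the difference, 11 of 12 integrated stress response genes were below 0 for shMOF, with a median of -0.20 (0.13 with the first principal component in the fit). Of the hypoxia genes 7 of 8 were below 0, with a median of -0.41 (-0.02 with that component). In 6 of 8 shMOF was lower with no overlap, as it was for 14.1% of all genes. EGLN3, an oxygen-sensing hydroxylase, had -0.53 ± 0.22 (SE). Of the heat shock genes 4 of 6 were below 0, with a median of -0.30 (-0.03 with that component), and the co-chaperone BAG3 had -0.66 ± 0.26 (SE). BAG3 had 0.77 ± 0.26 for shMOF in ERα(-) (SE), the opposite sign, and 0.43 without control ERα(-) replicate 1.

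Control ERα(-) replicate 1, the array with the highest EGR1 and the highest ATF3 of all 12, had the stress genes far from the other 11 arrays. The mean of its integrated stress response genes was 1.15 above their mean over 12 arrays, while the others lay between -0.32 and 0.25. Its hypoxia genes were 1.59 above, with the others between -0.44 and 0.25, and its heat shock genes were at -1.02, with the others between -0.14 and 0.30. The lists nearest to the members were highest on this array too. Its AP-1 and related bZIP genes were at 0.62, with the others between -0.37 and 0.18. Its other immediate early genes were at 0.32, with the others between -0.31 and 0.14. Its EGR and NAB genes were at 0.18, with the others between -0.15 and 0.11. On it DDIT3 was 8.26, where the others had 5.31 to 6.08. TRIB3, a pseudokinase induced by ATF4, was 8.18 on it and 5.85 to 6.91 on the others. JUN was 8.44 on it and 6.09 to 7.36 on the others, and the chaperone HSPA1A was 7.76, where the others had 9.07 to 9.89. Each of these levels lay outside the range of the other 11 arrays. The part of this array's state in the ATF3 and EGR1 levels was not tested beyond the values without it.

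**Figure D4:**
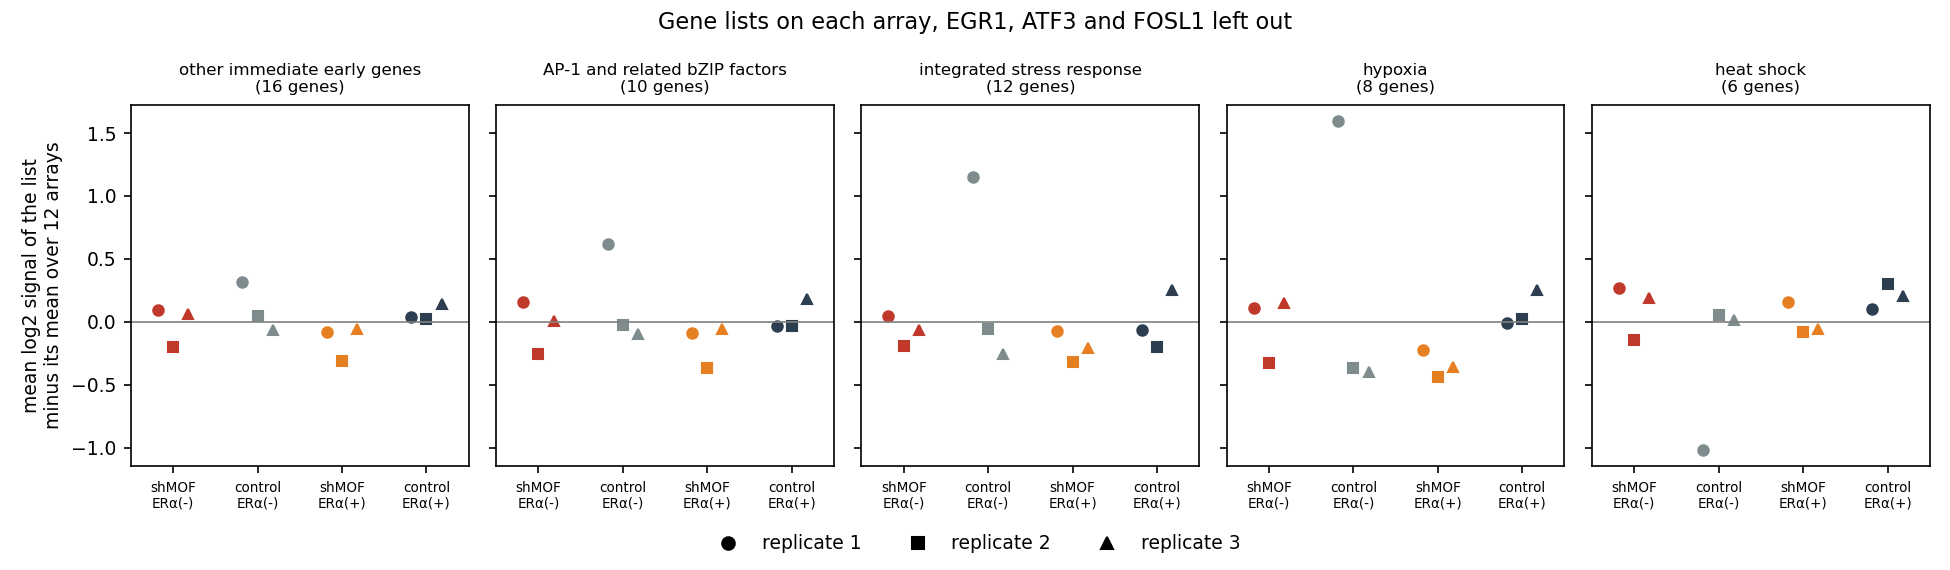
Mean log2 level of each gene list on each array, minus the list's mean over the 12 arrays, with the 3 members left out. Control ERα(-) replicate 1 stands at 1.15 for the integrated stress response, 1.59 for hypoxia and -1.02 for heat shock, outside the other arrays.

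EGR1 and ATF3 varied together over the arrays. Over all 12 Pearson's r was 0.78 and Spearman's rho 0.69, and r was 0.73 without the 2 arrays farthest in EGR1. Both genes were chosen for the same difference, so no p is given for this value. On the 6 ERα(+) arrays, which the choice did not use, r was 0.82 (two-sided exact permutation p = 0.0583, adjusted p = 0.204 over 9 correlations) and rho 0.60 (exact p = 0.242, adjusted p = 0.725), but without the 2 farthest arrays r was 0.02, so it rests on those 2. In ERα(-) r was 0.76, and in deviations from the group means over 12 arrays it was 0.50. FOSL1 had r of -0.24 with EGR1 and -0.01 with ATF3 over 12 arrays.

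The first principal component of the arrays held 36.8% of the variance over genes, and FOSL1 followed it. Its scores, whose sign is arbitrary, ran from -32.9 on control ERα(+) replicate 3 to 29.8 on shMOF ERα(+) replicate 2. On the 6 ERα(-) arrays, which the choice of FOSL1 did not use, r between FOSL1 and the score was -0.94 (two-sided exact permutation p = 0.00139, adjusted p = 0.00720 over 9 correlations) and rho -1.0 (exact p = 0.00278, adjusted p = 0.0125), and r was -0.90 without the 2 farthest arrays. In ERα(-) the ends of this axis were both shMOF arrays, at -22.3 on replicate 1 and 18 on replicate 2, with FOSL1 at 7.78 and 6.73. In ERα(+) r was -0.73 and rho -0.71, and no p is given, since FOSL1 was chosen on those arrays. Over 12 arrays r was -0.80 for FOSL1, 0.08 for EGR1 and -0.08 for ATF3. The component is computed from all tested genes on all 12 arrays, FOSL1 and the arrays that chose it included. How many other genes follow it as closely was not counted, so these p-values do not set FOSL1 apart. What the component stands for was not tested.

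**Figure D5:**
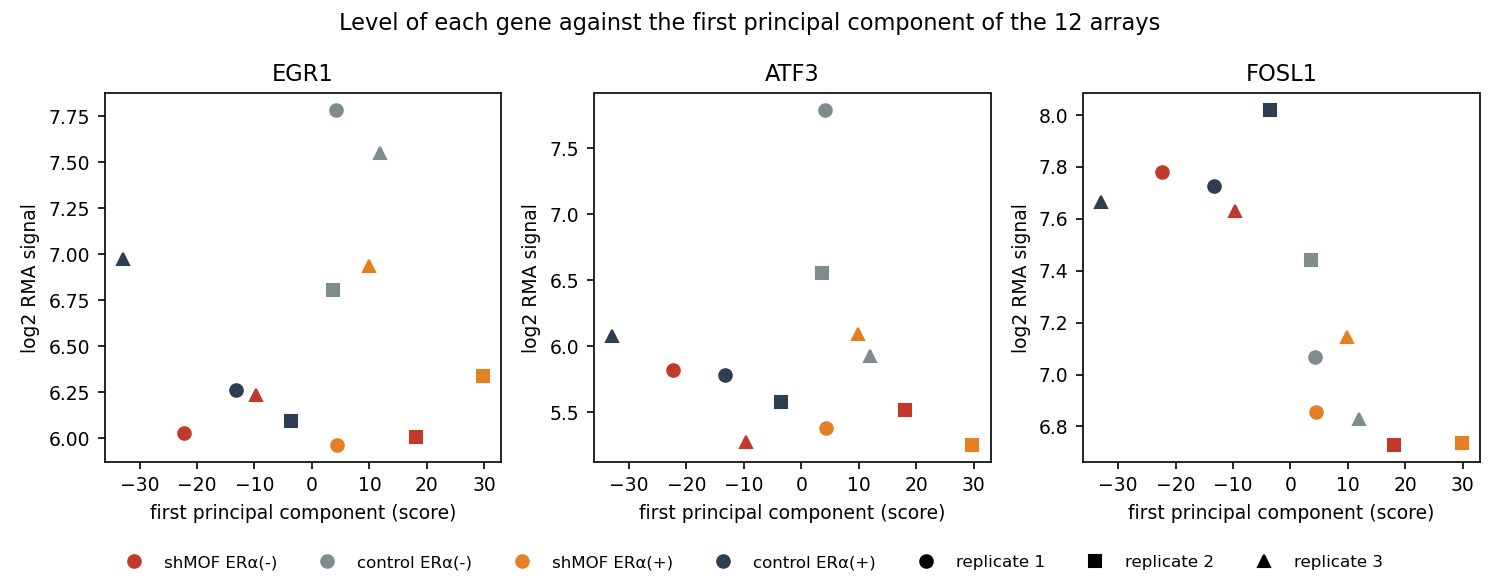
Log2 level of EGR1, ATF3 and FOSL1 against the score of each array on the first principal component (36.8% of the variance). FOSL1 is lower at higher scores (r = -0.80 over 12 arrays), and EGR1 and ATF3 show no such slope (r = 0.08 and -0.08).

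The genes most like each member were the 5 with the highest Pearson r over 12 arrays among 7441 other genes at or above the median level. For FOSL1 they were FEN1, a DNA replication nuclease, at 0.98, MAPKAPK2, a kinase downstream of p38, at 0.97, DDA1 at 0.97, BCL9L, a β-catenin cofactor, at 0.96 and FURIN, a protease, at 0.96. In all, 62 genes reached an r of 0.9 with FOSL1, 1 with ATF3 and 0 with EGR1. FURIN had -0.60 ± 0.21 for shMOF in ERα(+) and 0.25 ± 0.21 in ERα(-), and FEN1 had -0.32 ± 0.13 and 0.13 ± 0.13 (SE).

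ATF3 was most like HOXD11, a patterning homeobox factor, at 0.91, FBXO42 at 0.90, EAF1 at 0.89, DDIT3 at 0.89 and NRBF2 at 0.88. Without control ERα(-) replicate 1 HOXD11 kept 0.81, FBXO42 had 0.61, EAF1 0.63, DDIT3 0.55 and NRBF2 0.56. For EGR1 the 5 were MIR3180-4 at 0.85, ANO8 at 0.83, TMEM139 at 0.81, WLS, which carries Wnt proteins to the cell surface, at 0.80 and UFSP1 at 0.79, and without that array they had between 0.68 and 0.84. WLS had -0.49 ± 0.13 for shMOF in ERα(-) and 0.28 ± 0.13 in ERα(+) (SE). For 4 of the 5 genes most like ATF3, much of the likeness thus came with 1 array, which was not so for the 5 most like FOSL1, at 0.97 to 0.98 without it.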

How the data were processed

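RNA of 12 samples was measured on 1-colour expression arrays. The authors deposited log2 values, for which the submitters' processing notes name RMA and Affymetrix Expression Console (version 1.4.1). In RMA the background is corrected, arrays are given 1 distribution and probes are summarised, which may shrink differences between dim levels. The build behind the probe sets is not given in the sources used here. Of 53617 probe sets, 16098 had 1 gene symbol in the platform annotation, 0 several and 37519 none. The brightest probe set of each gene was kept, and no dim gene was left out of the 14884 tested.

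The members and gene lists were chosen with earlier results of these data known. Genes named are KAT8, ESR1, the 3 members, up to 4 genes of a list with the smallest p in a comparison, and the 5 most like each member; levels of JUN, HSPA1A and TRIB3 by array were chosen after their values were seen. Group means were fitted to all 12 arrays by limma (version 3.58.1, R 4.3.3) using lmFit and eBayes, two-sided, on 8 residual and 5.60 prior degrees of freedom, with Benjamini-Hochberg adjustment over all genes within a comparison. The pipeline was tested on simulated data. Correlations used permutation tests coded with numpy (version 2.4.6), with ranks from scipy (version 1.17.1). The tests were exact for 6 arrays and used 100000 resamples for 12. The 95% interval reached a median of 0.33 either side of a difference, and 0.46 for the interaction, and 3 arrays a group limit the precision. Alternatives were other probe set rules, a filter on dim genes, other scaling, a variance trend, array quality weights, fits of 2 groups, blocks, the first principal component and each array left out.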

Additional observations from a re-analysis of the deposited data

How the results depend on the processing

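Of 342 alternative member differences, 329 kept their sign within the spread, 5 moved further and 8 had the opposite sign (5 for EGR1 and 1 for ATF3 with shMOF in ERα(+), and 2 for ATF3 between the ERα labels on shMOF arrays, at -0.22 without shMOF ERα(+) replicate 3 and -0.09 without shMOF ERα(-) replicate 3), and of 1368 list medians 1299 kept and 69 moved. Array quality weights, which ranged from 0.36 to 8.86, gave 645 called genes for shMOF against control in ERα(-) and 1629 in ERα(+), 217 between the ERα labels on control and 1918 on shMOF arrays, and 3258 in the interaction, against 0 in each without them. Leaving out each array gave 0 to 5, 0 to 30, 0 to 4, 0 to 11 and 0 to 570 calls in the same order, each highest without shMOF ERα(-) replicate 2; without shMOF ERα(+) replicate 1 the interaction had 11, and without control ERα(+) replicate 3 it had 1, as did shMOF in ERα(+). Fitting only the groups compared gave 9 for ERα in control, and the code letter as a random block gave 5 for the interaction. The replicate block gave 2 calls for the interaction and changed no other count; same-numbered arrays had correlations of deviations from -0.18 to 0.45, so the numbers were not taken as a pairing. For EGR1, shMOF in ERα(+) was 0.28 with array weights, 0.20 with the first principal component and -0.29 to 0.23 over arrays left out, and ATF3 was 0.19 with that component. Adjusted p ranged over the alternatives from 0.428 to 0.999 for EGR1 and 0.500 to 0.999 for ATF3 in ERα(+), and from 0.085 to 1.0 for FOSL1 in ERα(-). With the mean of its probe sets EGR1 averaged 4.69 in shMOF ERα(-), 5.51 in control ERα(-), 4.91 in shMOF ERα(+) and 4.95 in control ERα(+), and its correlation with ATF3 over 12 arrays was 0.73; in deviations from group means it was 0.50. The correlation of ATF3 and FOSL1 was 0.030 after quantile normalization and 0.18 in deviations over 12 arrays, and 0.15 in deviations in ERα(-). The cause of these changes was not tested.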
